A study of Mus musculus with 60 samples.

Results

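The transcripts described here are 10 genes whose products respond to temperature and to misfolded protein. They are Hspa1a, Hspa1b, Hsph1, Hsp90aa1, Hspa8, Dnajb1, Hspb1, Hspe1, Cirbp and Rbm3, taken as a fixed list of symbols from among 55335 gene identifiers. All 10 were matched to GENCODE mouse symbols, and all 10 were among the 15546 genes that passed the filter of at least 1 CPM (counts on a gene scaled to a common library total) in at least 1 sample. RNA-Seq was done on kidneys of 60 male mice on a C57BL/6J background. Bmal1lox/lox/Pax8-rtTA/LC-1 Cre mice (cKOt mice) lose the clock gene Bmal1 in the renal tubule, where the Pax8 promoter drives the doxycycline-dependent activator, so that other kidney cells keep the gene, and their Bmal1lox/lox littermates were the control mice. Both genotypes drank doxycycline at 2 mg/ml for 2 weeks from 8 weeks of age, and kidneys were taken 4 weeks after it ended. Mice were kept in 12 hours of light and 12 hours of darkness and sampled at ZT0, ZT4, ZT8, ZT12, ZT16 and ZT20 (Zeitgeber time, hours after lights on), with 5 separate mice in each of the 12 groups. The 5 mice of a group had been chosen by the study from a larger set by RNA quality and distance to the other mice of the group.

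Cells hold their proteins folded with chaperones, and the transcription factor HSF1 raises chaperone mRNAs when heat or other stress leaves proteins unfolded. HSF1 binds heat shock elements, in which short GAA units lie in alternating orientation. Hspa1a and Hspa1b encode the inducible HSP70 proteins, Hspa8 the constitutive one, Hsph1 an HSP110 protein that exchanges nucleotide on HSP70, and Dnajb1 a J-domain protein that delivers clients to it. Hsp90aa1 encodes the inducible HSP90, Hspb1 a small heat shock protein, and Hspe1 the mitochondrial cofactor that closes the HSP60 chamber. Cirbp and Rbm3 encode RNA-binding proteins whose levels rise with mild cooling. Body temperature in mice is higher in the dark, active phase than in the light phase, and was not part of the data used here.

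The genes with a heat shock element near the start are shown first, because they were to be read beside the mRNA levels. RefSeq promoter windows (GRCm38.p6) were given for 7 of the 10 genes. They were searched over the 250 bases before the start for a pair of units, GAANNTTC or TTCNNGAA, and for the E-box CACGTG, the site bound by BMAL1 with CLOCK. These motifs read the same on both strands. The pair was found before a RefSeq start of 5 of the 7 genes (Hspa1a, Hspa1b, Hsph1, Hspb1 and Hspe1) and in 12.8% of all 32851 windows of that length. Capitals mark the matches. Hspa1a (chr17:34972157-34972406, minus strand), Hspa1b (chr17:34959239-34959488, minus strand) and Hspb1 (chr5:135887669-135887918, plus strand) are given over 250 bases. Hsph1 (chr5:149636351-149636380, minus strand) and Hspe1 (chr1:55088053-55088082, plus strand) are given over the 30 bases around the match.
Hspa1a: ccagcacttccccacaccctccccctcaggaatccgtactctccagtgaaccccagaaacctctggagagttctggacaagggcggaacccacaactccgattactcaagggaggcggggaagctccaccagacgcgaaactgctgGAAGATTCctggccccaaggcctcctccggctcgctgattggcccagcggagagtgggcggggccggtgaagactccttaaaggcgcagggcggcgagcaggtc
Hspa1b: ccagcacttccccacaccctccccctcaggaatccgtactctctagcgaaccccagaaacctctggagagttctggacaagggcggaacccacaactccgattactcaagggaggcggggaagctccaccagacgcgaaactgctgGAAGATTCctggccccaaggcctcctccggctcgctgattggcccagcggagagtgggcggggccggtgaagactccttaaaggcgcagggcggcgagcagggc
Hspb1: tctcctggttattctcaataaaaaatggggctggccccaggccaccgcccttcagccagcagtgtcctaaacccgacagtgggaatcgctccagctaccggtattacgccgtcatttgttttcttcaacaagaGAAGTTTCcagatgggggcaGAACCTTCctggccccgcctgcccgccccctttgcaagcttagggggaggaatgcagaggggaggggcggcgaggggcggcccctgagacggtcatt
Hsph1: gggtagaatctTTCTCGAAggctcgagaag
Hspe1: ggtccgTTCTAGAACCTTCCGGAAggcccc

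Hspa1a and Hspa1b were identical at 247 of the 250 positions (98.8%) and carried the same match, GAAGATTC, starting 104 bases before each gene. Hspb1 had a pair of matches, starting 117 and 97 bases before the gene. At Hspe1 the matches overlapped, and 3 or more units ran together (TTCNNGAANNTTC or GAANNTTCNNGAA), which was found in 0.466% of all windows. The E-box was found before 1 gene, Hsph1, starting 19 bases before the later of its RefSeq starts, and in 6.02% of all windows. No pair lay in the windows of Dnajb1 and Cirbp, and Hsp90aa1, Hspa8 and Rbm3 had no window. The windows follow RefSeq starts, which differ for some genes from the GENCODE positions given below. By those positions the pair and the E-box of Hsph1 lie inside the gene. Windows of Dnajb1, Cirbp and Hspe1 also reach into the gene. A match describes the letters and not a bound site.

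The genes lie on GRCm38 as annotated by GENCODE. Hspa1a (ENSMUSG00000091971) and Hspa1b (ENSMUSG00000090877) are neighbours on the minus strand of chromosome 17, at chr17:34969190-34972156 and chr17:34956436-34959238, each with a single exon. Hsph1 (ENSMUSG00000029657, chr5:149614287-149636376, minus strand) and Hspb1 (ENSMUSG00000004951, chr5:135887919-135889563, plus strand) are on chromosome 5. Hsp90aa1 (ENSMUSG00000021270) is at chr12:110690605-110702728 on the minus strand, Hspa8 (ENSMUSG00000015656) at chr9:40800984-40810087 on the plus strand, Dnajb1 (ENSMUSG00000005483) at chr8:83608193-83612653 on the plus strand and Hspe1 (ENSMUSG00000073676) at chr1:55088132-55091307 on the plus strand. Cirbp (ENSMUSG00000045193) is at chr10:80165985-80172786 on the plus strand, and Rbm3 (ENSMUSG00000031167) at chrX:8138975-8145880 on the minus strand.

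Counts on genes ranged from 17791420 to 20906706 per library. Because reads with more than 1 alignment were not counted on genes, part of the reads of the near-identical Hspa1a and Hspa1b may be missing, as may be some of Hspe1, for which 6 pseudogenes are named, and of Rbm3, for which 1 is. Hspa1a and Gm20481, Hspe1 and Hspd1, and Rbm3 and Rbm3os overlap on opposite strands, with the strand setting of the counting not given in the sources used here, and Hspa8 contains Snord14c, Snord14d and Snord14e. Bmal1 is listed as Arntl. Its mRNA rose and fell in control mice, from a median of 2.12 CPM at ZT12 to 52.3 CPM at ZT0, and stayed between 14.6 and 26.8 CPM in all cKOt mice. The genotypes did not overlap at 5 of 6 time points, with cKOt mice lower at ZT0 and ZT20 and higher at ZT4, ZT8 and ZT12. Reads from exons outside the deleted part are counted too, so this is a check of labels and not of the deletion. The labels name the renal tubule as the tissue, and the methods describe pieces of kidney. Podocyte markers (3 of 3 detected) summed to 246 to 360 CPM in the control and 255 to 340 CPM in the cKOt libraries. In such mixed tissue fewer cells of a type and less RNA per cell cannot be told apart.

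A pair of control mice stood apart in these genes. In control replicate 2 at ZT12, 7 of the 10 transcripts were above and 1 was below those of the other 4 mice of the group. Hspa1a was 22.1 CPM in this mouse and between 2.98 and 4.61 CPM in the others, and Hspa1b was 30.8 CPM against 5.23 to 9.81 CPM. Dnajb1 was 79.7 CPM against 34.5 to 39.8 CPM. Cirbp went the other way, with 17.7 CPM against 23.9 to 36.8 CPM. In control replicate 2 at ZT4, 6 transcripts were above and 1 was below the other mice, with Hspa1b at 15.1 CPM against 1.59 to 9.33 CPM, Dnajb1 at 51.4 CPM against 24.1 to 28.2 CPM, and Cirbp at 19.5 CPM against 31.2 to 38.7 CPM. The summed immediate early genes of both mice lay within the range of their groups (312 against 244 to 327 CPM at ZT12, 237 against 195 to 356 CPM at ZT4). Fibroblast and smooth muscle markers of the ZT12 mouse were above its group (69.6 against 34.5 to 58.9 CPM, and 93.7 against 46.9 to 68.8 CPM), as were its podocyte markers (294 against 246 to 283 CPM), and endothelial markers of the ZT4 mouse were below its group (245 against 258 to 270.0 CPM). Of the cKOt mice, replicate 4 at ZT16 is marked for removal in the study's sample list, although its data were deposited, and it was kept. Results that rest on the pair of control mice are given with and without them.

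**Figure D1:**
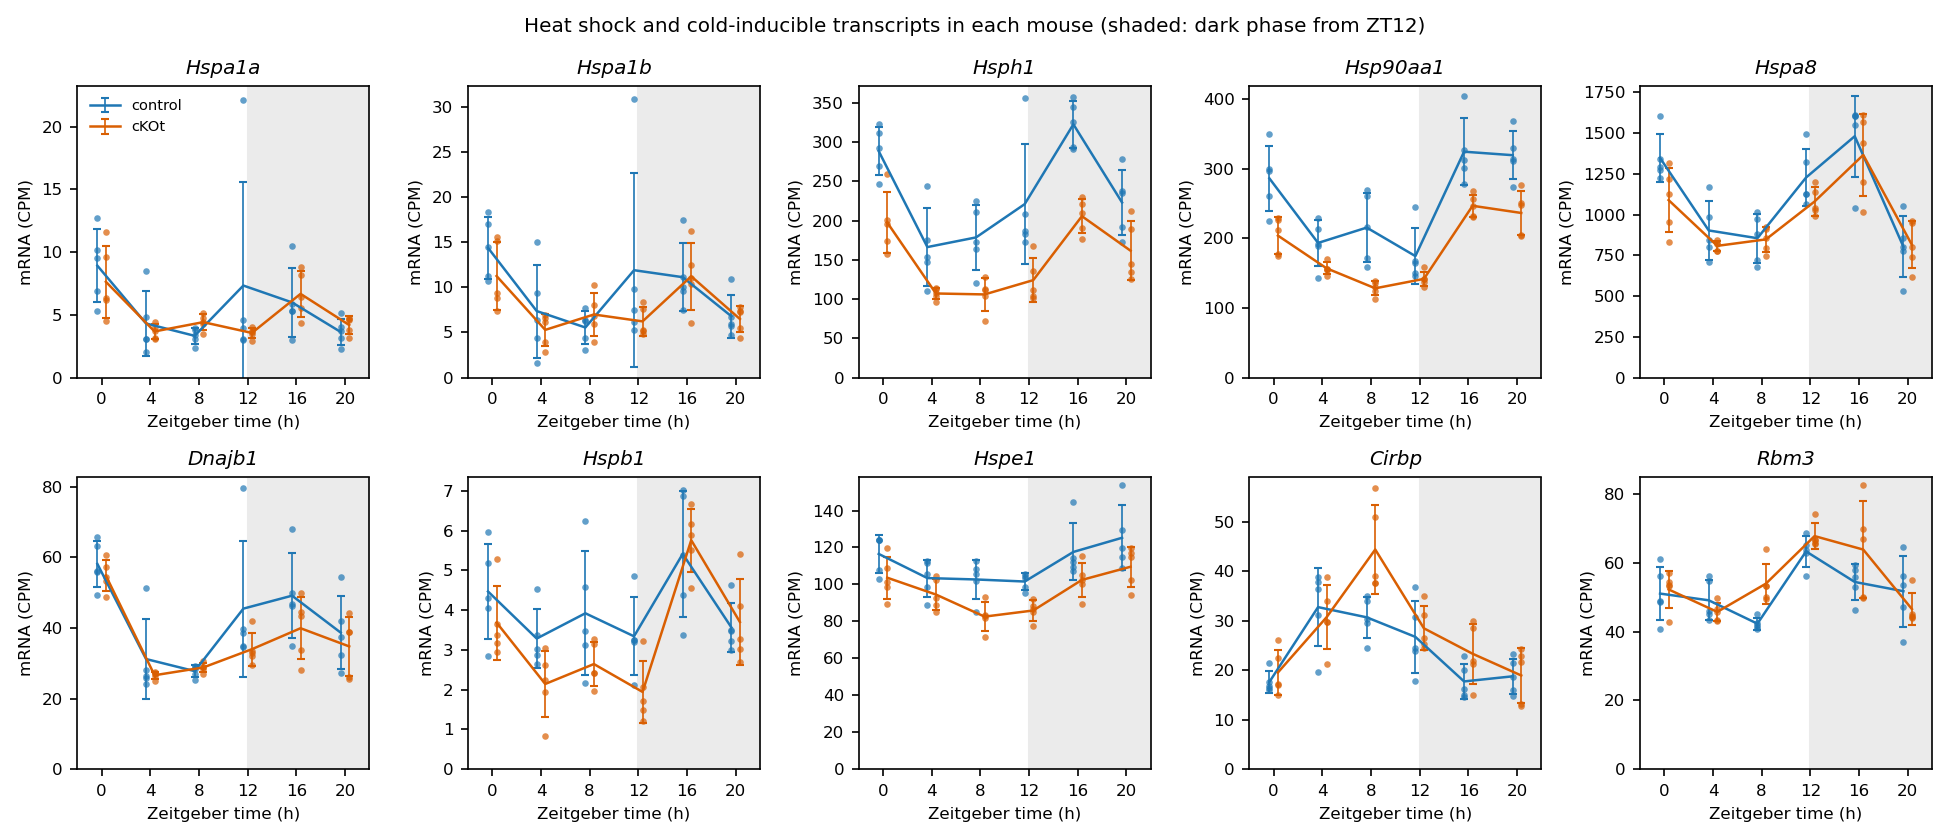
mRNA of each gene in CPM (vertical axis, linear from 0) against Zeitgeber time in hours, with control mice in blue and cKOt mice in orange. Points are single mice, lines join the group means, and bars are the SD of 5 mice (cut at 0 for Hspa1a at ZT12). The Hsph1 and Hsp90aa1 lines of cKOt mice run below those of control mice at every time point, Cirbp peaks in the light phase, and the single high point of Hspa1a at ZT12 is the control mouse with 22.1 CPM.

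The levels of the genes differed widely when set per length of exon (RPKM, which is CPM per kilobase of exon). In control mice Hspa8, the constitutive HSP70, had the highest level, 256 ± 73.1 RPKM (SD, n = 30). Hspe1 and Hsp90aa1 followed with 75.4 ± 9.76 and 64.2 ± 18.4 RPKM. Hspa1b and Hspa1a, the inducible HSP70 genes, had 3.39 ± 2.10 and 1.88 ± 1.39 RPKM, the lowest of the 10. Between them lay Hsph1 (32.1 ± 9.84 RPKM), Dnajb1 (13.0 ± 4.66 RPKM), Rbm3 (11.1 ± 1.85 RPKM), Cirbp (9.23 ± 3.06 RPKM) and Hspb1 (3.88 ± 1.27 RPKM). The neighbours Hspe1 and Hsp90aa1, the run from Dnajb1 to Cirbp, and the run from Hspb1 to Hspa1a overlapped within 1 SD. Hspb1, Hspa1a and Hspa1b also had the fewest reads, with 37 to 132, 37 to 390 and 29 to 544 counts in a control library, so that their values are the least precise. For the near-identical Hspa1a and Hspa1b, reads with more than 1 alignment were not counted. Their RPKM, and with it their rank, may therefore be too low.

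The comparison of cKOt with control mice asked whether loss of Bmal1 in the tubule changed the mean level over the day. Most chaperone mRNAs, 6 of 8, were lower in cKOt mice. Of the 10 genes, 6 were lower (Hsph1, Hsp90aa1, Hspb1, Hspe1, Dnajb1 and Hspa8), 1 was higher (Cirbp) and 3 did not pass the threshold of an adjusted p of 0.05 (Hspa1a, Hspa1b and Rbm3). Among all 15546 genes 23.2% were called lower and 26.8% higher, and the median log2 fold change was 0.012, whereas that of the 10 genes was -0.20. Without either of the control mice that stood apart, or without both, 4 genes were lower and 1 was higher, with Dnajb1 and Hspa8 no longer past the threshold.

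Hsph1 had the largest difference among the 10 genes. The control range was 110 to 357 CPM with a median of 230.3 CPM, and the cKOt range 72.5 to 259 CPM with a median of 135 CPM. The ranges over the whole day overlapped because of the daily swing. At ZT16 they did not, with 326, 357, 294, 345 and 291 CPM in control mice and 209, 230, 222, 190 and 177 CPM in cKOt mice. At ZT12 too every cKOt mouse (136, 112, 168, 101 and 103 CPM) was below every control mouse (183, 356, 186, 208 and 173 CPM). The log2 fold change over the day was -0.66 (SE 0.070, adjusted p = 1.10e-11 in the edgeR fit), which is 0.632 of the control level. It was -0.59 (adjusted p = 4.13e-12) without both control mice that stood apart. At the single time points the log2 fold change lay between -0.87 and -0.49, and all 6 passed the threshold, with ZT20 the nearest to it (adjusted p = 0.0491). At ZT20 the call held in 3 of 10 alternative settings, and with each replicate number left out in turn it held in 2 of 5 fits at ZT0 and in 2 of 5 at ZT20.

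Hsp90aa1 followed Hsph1. Control mice had 143 to 404 CPM with a median of 261 CPM, and cKOt mice had 113 to 276 CPM with a median of 173 CPM. At ZT8 the control mice had 269, 261, 159, 217 and 171 CPM and the cKOt mice had 124, 130, 135, 113 and 139 CPM, without overlap. At ZT16 the values were 313, 326, 278, 404 and 301 CPM against 257, 269, 246, 231 and 232 CPM, again without overlap. Over the day the log2 fold change was -0.45 (SE 0.049, adjusted p = 1.86e-11). It was below 0 at all 6 time points and past the threshold at 5, the exception being ZT12 (-0.32, adjusted p = 0.0547). With each replicate number left out in turn, the call held in 1 of 5 fits at ZT4 and in 3 of 5 at ZT16 and at ZT20. At ZT4 it held in 7 of 10 alternative settings.

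The chaperonin cofactor Hspe1 had a smaller difference with a small spread. The control range was 85.0 to 154 CPM (median 109 CPM) and the cKOt range 71.4 to 119.7 CPM (median 93.7 CPM), and its log2 fold change was -0.22 (SE 0.030, adjusted p = 1.56e-08). At ZT12 every cKOt mouse (92.3, 86.5, 77.2, 84.9 and 88.4 CPM) was below every control mouse (106, 105, 98.5, 103 and 95.5 CPM). Its partner Hspd1, the HSP60 chamber, was also lower, averaging 772 CPM in control against 661 CPM, for a log2 fold change of -0.24 (SE 0.020, adjusted p = 4.27e-15). The small heat shock gene Hspb1 covered 2.12 to 7.03 CPM in the controls and 0.839 to 6.67 CPM in cKOt kidneys, for a log2 fold change of -0.32 (SE 0.086, adjusted p = 0.00173). For Hspb1 the difference passed the threshold at ZT8 (-0.65) and ZT12 (-0.73) and was 0.10 at ZT16 (adjusted p = 0.772 in the edgeR fit). At ZT8 the call held in 2 of 5 fits that left out a replicate number and in 8 of 10 alternative settings. At ZT12 it held in 4 of 5 and 10 of 10. Without control replicate 2 of ZT12, one of the mice that stood apart, it was lost (-0.61, adjusted p = 0.0703).

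For the HSP70 genes the genotypes lay closer together. Hspa8 averaged 1103 ± 314 CPM in the controls against 1001 ± 246 CPM (SD, n = 30 each), with a log2 fold change of -0.13 (SE 0.055, adjusted p = 0.0399). The J-domain gene Dnajb1 was 41.8 ± 14.9 and 36.5 ± 10.7 CPM, with a log2 fold change of -0.18 (SE 0.076, adjusted p = 0.0384). Neither passed the threshold at any single time point, and with each replicate number left out in turn each kept its call in 1 of 5 fits. Without both control mice that stood apart, Hspa8 had a log2 fold change of -0.098 (adjusted p = 0.118) and Dnajb1 one of -0.089 (adjusted p = 0.189). Hspa1b and Hspa1a had log2 fold changes of -0.22 (SE 0.14, adjusted p = 0.178) and -0.077 (SE 0.14, adjusted p = 0.673), and that of Hspa1a became 0.13 (adjusted p = 0.255) without both mice.

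Cirbp was the gene of the list that was higher in cKOt mice, at 14.6 to 38.7 CPM (median 22.1 CPM) in the controls and 12.8 to 56.7 CPM (median 25.6 CPM) without tubular Bmal1. Its log2 fold change was 0.20 (SE 0.063, adjusted p = 0.00587). At ZT8 the genotypes did not overlap, with 24.5, 29.6, 34.0, 30.3 and 35.0 CPM in the controls and 51.0, 39.1, 37.6, 56.7 and 37.5 CPM in cKOt mice (log2 fold change 0.43, adjusted p = 0.0304). Without the correction for unwanted variation the difference over the day was 0.18 (adjusted p = 0.0578), so the call depends on that step. Rbm3 had a log2 fold change of 0.074 over the day (SE 0.043, adjusted p = 0.155). At ZT8 its mRNA was 41.9, 42.6, 45.1, 41.2 and 40.7 CPM in the controls and 49.5, 49.9, 53.2, 53.2 and 63.9 CPM in cKOt mice, all above the control mice (log2 fold change 0.34, adjusted p = 0.0197).

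**Figure D2:**
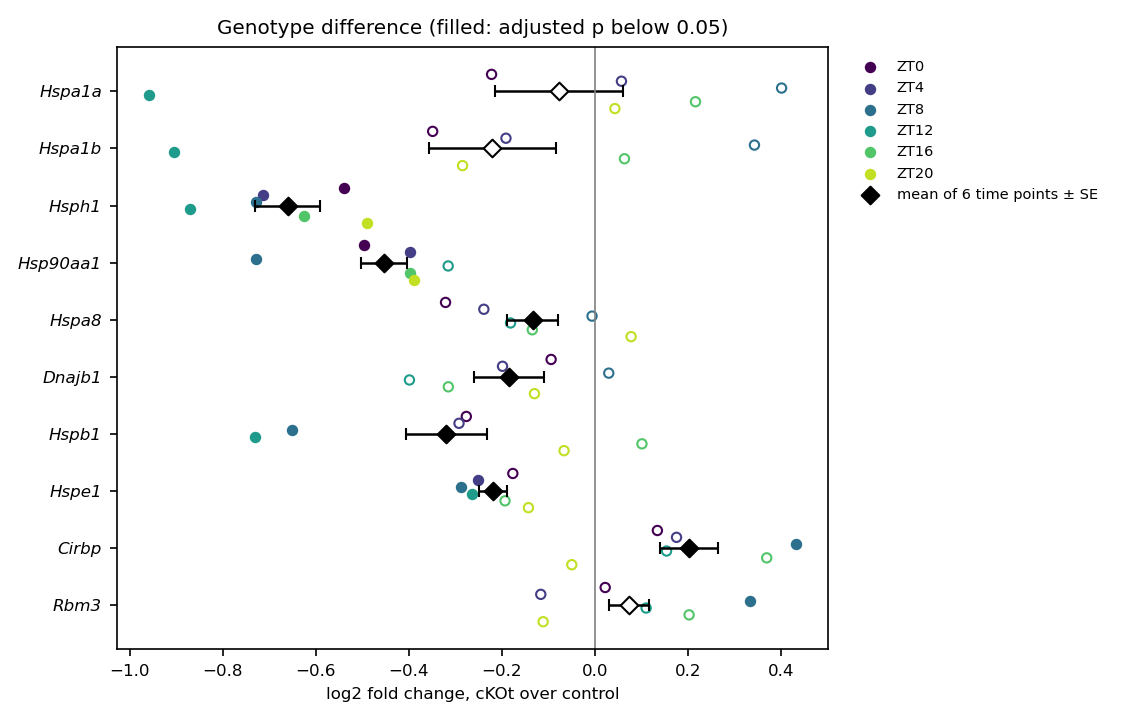
log2 fold change of cKOt over control mice (horizontal axis) for each gene. Diamonds are the mean over 6 time points with its SE, circles are single time points, and filled symbols passed an adjusted p of 0.05; Hsph1 lies at -0.66 with all 6 time points filled, and Cirbp lies at 0.20 on the other side of 0.

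Seen by time point, the members called were 2 at ZT0 (Hsph1 and Hsp90aa1, where 12.1% of all genes were called), 3 at ZT4 (these and Hspe1, 12.5%), 6 at ZT8 (19.9%), 5 at ZT12 (21.0%), 2 at ZT16 (Hsph1 and Hsp90aa1, 19.8%) and 2 at ZT20 (the same pair, 13.8%). At ZT8 the lower genes were Hsph1, Hsp90aa1, Hspb1 and Hspe1 and the higher ones Cirbp and Rbm3. At ZT12 Hspa1a, Hspa1b, Hsph1, Hspb1 and Hspe1 were lower. The groups did not overlap for 3 genes at ZT8 (Hsp90aa1, Cirbp and Rbm3, against 9.49% of all genes), for Hsph1 and Hspe1 at ZT12 (9.73%), and for Hsph1 and Hsp90aa1 at ZT16 (9.04%). The calls of Hspa1a and Hspa1b at ZT12 rest on 1 mouse. Their log2 fold changes were -0.96 (adjusted p = 0.0343) and -0.91 (adjusted p = 0.0429), and -0.069 (adjusted p = 0.910) and -0.29 (adjusted p = 0.602) without control replicate 2. Without that mouse 2 genes were called at ZT12 (Hsph1 and Hspe1), and without control replicate 2 of ZT4 1 gene was called at ZT4 (Hsph1).

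Whether the genotype difference itself varied with time was tested by the interaction. None of the 10 genes passed the threshold in edgeR's test (lowest adjusted p = 0.277, for Rbm3), against 3.08% of all genes. At an unadjusted p below 0.05 there was 1 gene, Rbm3, and limma-trend also called 0.

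Markers of other kidney cells moved with genotype. All 4 macrophage markers were lower in cKOt mice, with summed levels of 91.8 to 183 CPM against 59.3 to 125 CPM for cKOt. All 3 endothelial markers were lower (240 to 297 against 192 to 280 CPM), as were all 3 fibroblast markers (27.5 to 115 against 33.0 to 96.2 CPM), and 2 of 3 smooth muscle markers were lower. Markers of the tubule moved too, with 2 of 5 proximal tubule markers higher and 3 lower, 2 of 3 for the thick ascending limb higher and 1 lower, 2 of 3 for the distal convoluted tubule higher, and 1 of 4 for the collecting duct higher and 1 lower, whereas 0 of 3 podocyte markers passed the threshold and none of these markers was at 0. Of 3 tubular injury markers 1 was higher in cKOt mice. Their summed levels were 2.25 to 7.27 CPM in control and 2.04 to 7.82 CPM in cKOt libraries. The part of these cell types and of injury in the chaperone differences was not tested.

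Time of day was the other axis of the design. The test for any difference among the 6 time points called 9 of 10 genes in control mice, the exception being Hspb1 (adjusted p = 0.0671), and 8 of 10 in cKOt mice, the exceptions being Hspa1a (adjusted p = 0.0589) and Hspa1b (adjusted p = 0.0514). Of all genes 30.6% were called in control and 26.6% in cKOt mice. Without the control mice that stood apart, singly or together, all 10 genes were called in cKOt mice, although the mice left out were control mice.

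To set the dark against the light phase, the mean of ZT16 and ZT20 was compared with the mean of ZT4 and ZT8 within each genotype (10 mice against 10). Of the 8 chaperone mRNAs 5 were higher in the dark in control and 6 in cKOt mice, and Cirbp was lower in both. In control mice 5 genes were higher (Hsph1, Hsp90aa1, Dnajb1, Hspa8 and Hspe1, against 12.8% of all genes) and 1 was lower (Cirbp, against 11.4%). For Hspa8 the control difference came from ZT16, as its mean at ZT20 (803 CPM) was below those at ZT4 (903 CPM) and ZT8 (855 CPM). That call held in 10 of 10 alternative settings and in 2 of 5 fits that left out a replicate number. In cKOt mice the same 5 genes and Hspb1 were higher (6 genes, against 12.2% of all genes) and Cirbp was lower (against 12.7%). The cKOt difference of Hspa8 came from ZT16 too (mean 1366 CPM). At ZT20 its mean was 814 CPM, beside 808 CPM at ZT4 and 848 CPM at ZT8. In control mice, 8 genes were higher without both mice that stood apart, the additional ones being Hspa1a (0.59, adjusted p = 0.00933 in edgeR's test), Hspa1b (0.80, adjusted p = 0.00207) and Rbm3 (0.22, adjusted p = 0.0370). These mice were picked after their values for the 10 genes were seen. The ZT4 mouse belongs to the light phase and was above its group for Hspa1a and Hspa1b, so leaving it out raises their difference. The additional calls therefore do not stand as support. Cell type markers moved with the phase as well. In control mice 2 of 3 fibroblast markers were lower in the dark, in cKOt mice 2 of 5 proximal tubule markers were lower, and of 4 collecting duct markers 2 were higher and 1 was lower in each genotype. Of 3 markers each, 1 podocyte and 1 endothelial marker were lower and 1 thick ascending limb marker was higher in each genotype, and in cKOt mice 1 smooth muscle marker was higher. Of 3 tubular injury markers 0 passed the threshold in control mice and 1 was higher in the dark in cKOt mice. The part of these cell types and of injury in the phase differences was not tested.

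Hsp90aa1 separated the phases completely. Control mice had 143 to 269 CPM in the light (median 203 CPM) and 273 to 404 CPM in the dark (median 313 CPM). In cKOt mice it ranged from 113 to 170 CPM in the light and from 203 to 276 CPM in the dark. Such a gap between the phases was found for 1 of the 10 genes in each genotype, and for 0.849% of all genes in control and 1.01% in cKOt mice. The log2 difference was 0.63 (SE 0.085, adjusted p = 1.29e-07) in control and 0.80 (SE 0.086, adjusted p = 4.43e-10) in cKOt mice. Hsph1 rose by 0.64 (SE 0.12, adjusted p = 7.03e-05) and 0.80 (SE 0.12, adjusted p = 1.42e-06).

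Cirbp went the other way. Its mRNA was 19.5 to 38.7 CPM in the light (median 32.6 CPM) and 14.6 to 23.2 CPM in the dark (median 17.4 CPM) in control mice, and 21.2 to 56.7 CPM (median 37.6 CPM) and 12.8 to 29.9 CPM (median 21.8 CPM) in cKOt mice. The log2 difference was -0.75 (SE 0.11, adjusted p = 8.05e-07) in control and -0.89 (SE 0.11, adjusted p = 9.42e-09) in cKOt mice. In control mice the phases overlap through replicate 2 at ZT4, which had 19.5 CPM. Rbm3, the other cold-inducible gene, had differences of 0.20 (SE 0.077, adjusted p = 0.0510) and 0.13 (SE 0.076, adjusted p = 0.197), with a sign opposite to that of Cirbp.

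Hspb1 showed the widest gap between genotypes in this comparison. Its log2 difference was 0.38 in control mice (SE 0.15, adjusted p = 0.0504) and 0.87 in cKOt mice (SE 0.15, adjusted p = 1.46e-05). The difference of these differences was 0.49 (SE 0.21) and had an adjusted p of 0.284. None of the 10 genes passed the threshold for this difference in edgeR's test, against 2.03% of all genes. At an unadjusted p below 0.05 there was 1 gene, Hspb1, and limma-trend and DESeq2 each called 0.

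**Figure D3:**
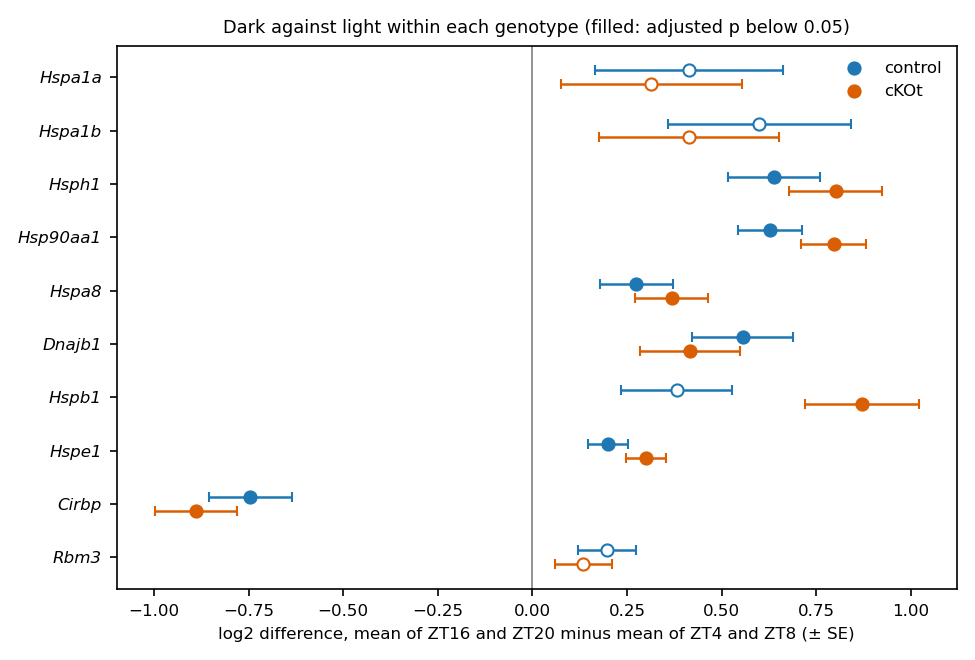
log2 difference between the dark phase (mean of ZT16 and ZT20) and the light phase (mean of ZT4 and ZT8) for each gene, in control (blue) and cKOt mice (orange), with SE bars and filled symbols for an adjusted p below 0.05. The heat shock genes lie to the right of 0 in both genotypes and Cirbp to the left, at -0.75 and -0.89.

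The phases hid some detail that single time points show. Hspa1a, Hspa1b and Dnajb1 had their highest mean at ZT0, the end of the night, in both genotypes. For each of them the ranges of ZT0 and ZT16 overlapped in both genotypes. In cKOt mice ZT0 and ZT16 are not resolved for Hspa1b (11.2 ± 3.81 and 11.2 ± 3.71 CPM) and Hspa1a (7.63 ± 2.88 and 6.67 ± 1.84 CPM). For Dnajb1 the ZT0 means were 58.2 ± 6.52 CPM for the controls and 54.8 ± 4.45 CPM for cKOt (SD, n = 5 each). Its lowest means were 27.8 ± 1.71 CPM at ZT8 in control and 26.6 ± 1.04 CPM at ZT4 in cKOt mice. In control mice Hspa1b went from 10.7 to 18.4 CPM at ZT0 down to 3.08 to 7.66 CPM at ZT8, without overlap.

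Hspa1a followed Hspa1b through the day. At ZT0 it was 5.28, 6.94, 12.7, 10.2 and 9.504 CPM in the controls, above all control mice of ZT8 (2.38, 3.08, 3.82, 3.93 and 3.43 CPM). In cKOt kidneys it was 6.19, 9.62, 11.6, 6.31 and 4.48 CPM at ZT0, above all 5 mice of ZT12 (2.92 to 4.02 CPM). At ZT16 Hspa1b averaged 11.1 ± 3.78 CPM in the controls and 11.2 ± 3.71 CPM in cKOt (SD, n = 5 each), and at ZT20 6.79 ± 2.40 and 6.49 ± 1.44 CPM.

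Hspb1, the small heat shock gene, had its highest mean at ZT16 in both genotypes, where the values overlapped those of ZT0 in the controls and of ZT20 in cKOt mice. The controls had 7.03, 5.39, 3.38, 4.39 and 6.89 CPM there, and the cKOt mice 4.56, 5.52, 6.67, 6.18 and 5.88 CPM, so the genotypes overlapped. Its lowest cKOt mean was 1.94 ± 0.781 CPM at ZT12, where the mice had 1.49, 1.72, 3.23, 2.06 and 1.22 CPM and the controls 3.25, 4.87, 3.20, 2.12 and 3.26 CPM. The cKOt mean of ZT16 was 2.97-fold that of ZT12, without overlap, whereas the control values of its highest and lowest time points overlapped.

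Hspa8 had its highest mean at ZT16 in both genotypes, where its values overlapped those of ZT0. Its lowest control mean was at ZT20, in the dark phase. At ZT16 the control mice had 1610, 1602, 1549, 1604 and 1039 CPM, and at ZT20 they had 800, 858, 530, 775 and 1051 CPM. The ranges meet through replicate 5 of ZT16 and replicate 5 of ZT20. The cKOt means of these time points were 1366 ± 251 and 814 ± 144 CPM (SD, n = 5 each).

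Hsph1 and Hsp90aa1 had their highest means at ZT16 and Hspe1 at ZT20, in both genotypes. Values of the next highest time point overlapped each of these, so their order is not resolved. In control mice Hsp90aa1 had 324 ± 48.1 CPM at ZT16 and 319 ± 34.5 CPM at ZT20, and Hspe1 118 ± 15.4 and 125 ± 17.6 CPM. In cKOt mice Hsph1 had 206 ± 22.0 CPM at ZT16 and 198 ± 38.5 CPM at ZT0. Rbm3 was highest at ZT12, at 63.3 ± 4.60 CPM in control and 67.8 ± 3.70 CPM for cKOt, whereas Cirbp was highest at ZT4 in control (32.7 ± 7.94 CPM) and at ZT8 in cKOt mice (44.4 ± 8.91 CPM). For Cirbp in control mice, the values at ZT4 and ZT8 overlapped (19.5 to 38.7 and 24.5 to 35.0 CPM), so their order is not resolved. For Rbm3 every control mouse of ZT12 (68.6, 65.3, 56.1, 63.8 and 62.8 CPM) was above every one of ZT8, and at ZT16 the cKOt mice spread from 49.7 to 82.6 CPM.

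Rhythms were assigned by fitting 24 h curves and choosing among 5 models by their Bayesian information criterion, where model 4 is an equal rhythm in both genotypes and a weight of at least 0.65 was needed. Model 4 held 7 of the 10 genes (Hsph1, Hsp90aa1, Hspa8, Dnajb1, Hspe1, Cirbp and Rbm3) and 25.2% of all genes. Hspa1a, Hspa1b and Hspb1 were not assigned. The weight of Hspa8 was 0.6505, at the limit, and that of Hsp90aa1 0.973. Without both control mice that stood apart, 9 genes were in model 4, Hspa1a and Hspa1b among them. Without control replicate 2 of ZT12 alone Hspa1a and Hspa1b joined model 4, and Hspa8 and Rbm3 were no longer assigned. Hspa8 was also unassigned without replicates 1, 2, 4 or 5 or without the sample marked for removal, Rbm3 without replicates 1, 3 or 4, and both at a weight of 0.8. Hspa1a fell into model 1, no rhythm in either genotype, at a weight of 0.5 or without replicates 1, 3, 4 or 5. It also did so without the correction for unwanted variation or with 1 factor in it. Hspb1 fell into model 3, a rhythm in cKOt mice alone, without that correction or without replicates 3 or 5. At a weight of 0.5 or without replicates 1 or 4 it was in model 4. Hsph1, Hsp90aa1, Dnajb1, Hspe1 and Cirbp stayed in model 4 in all these settings.

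Fitted peaks fell into the dark phase for the chaperones. Hsp90aa1 peaked at ZT20.1 (SE 0.571 h) in control and ZT19.6 (SE 0.490 h) in cKOt mice, and Hsph1 at ZT18.5 (SE 0.938 h) and ZT19.4 (SE 0.733 h). Cirbp peaked at ZT7.62 (SE 0.607 h) and ZT8.09 (SE 0.455 h), and Rbm3 at ZT15.4 (SE 1.43 h) and ZT13.1 (SE 0.820 h). The amplitude from trough to peak on the log2 scale was largest for Cirbp, 0.93 (SE 0.15) in control and 1.23 (SE 0.15) in cKOt mice. The median over all genes was 0.20 and 0.19. In control mice the amplitude of Hsp90aa1, 0.86 (SE 0.13), lay within 1 SE of that of Cirbp, so their order is not resolved. Hspe1 had the lowest amplitude of the 7 genes in cKOt mice, 0.43 (SE 0.062). Hspa8 (0.50, SE 0.19) and Rbm3 (0.50, SE 0.11) lay within 1 SE of it there, so this order is not resolved either.

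**Figure D4:**
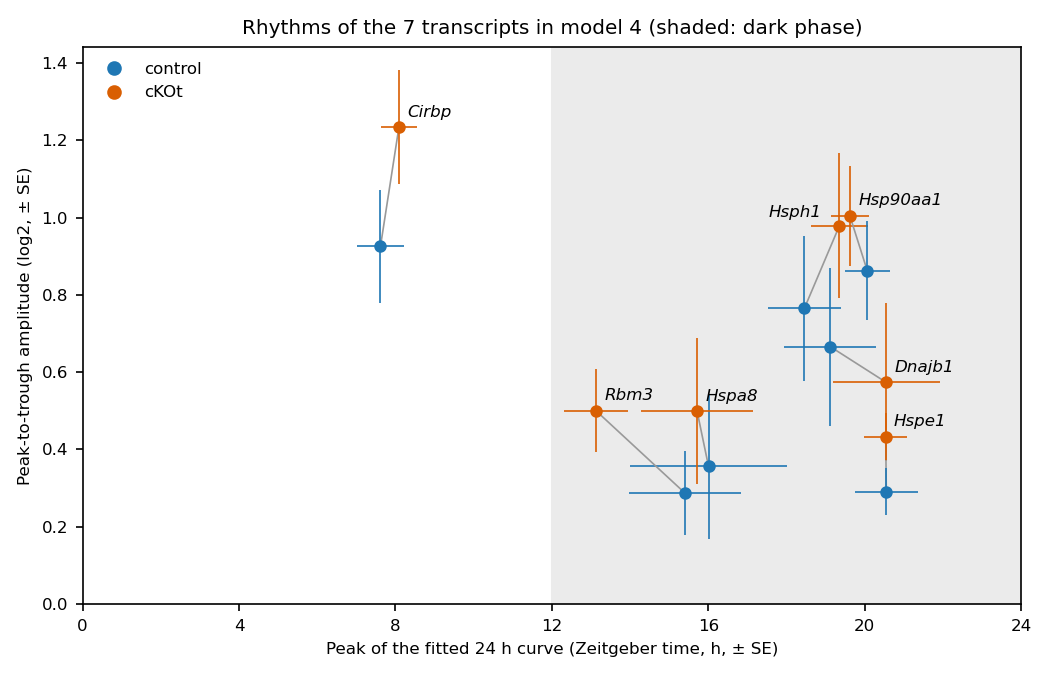
Amplitude from trough to peak of the fitted 24 h curve (log2, vertical axis) against the time of its peak (Zeitgeber time, horizontal axis) for the 7 genes in model 4, with SE bars and a line joining control (blue) and cKOt mice (orange) for each gene. Cirbp stands alone in the light phase near ZT8, and the other 6 genes peak between ZT13.1 and ZT20.5.

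Mice of the same group also differed together. For each mouse the deviation of log2 CPM from the mean of its group was taken, and Pearson's r was computed over the 60 mice for the 45 pairs of genes and for each gene with the mean of 10 immediate early genes (55 relations, 100000 permutations of mice within groups, two-sided, Benjamini-Hochberg adjusted). Of the 28 pairs among the 8 heat shock genes, 18 had a positive r past the threshold and 0 a negative one. Pairs of other genes were not tested. These counts, and those of Cirbp and Rbm3 below, thus have no share over all genes beside them. The deviations were taken without the correction for unwanted variation. Of the 18, the relations of Hspa8 with Hspa1a (adjusted p = 0.0803 by permutation) and with Hspa1b (0.196), of Hspa1b with Hspb1 (0.195) and of Hsp90aa1 with Dnajb1 (0.103) no longer passed without the 2 mice farthest from the median of the first gene. After the correction for unwanted variation those of Hspa1b with Hspb1 (adjusted p = 0.225 by permutation) and of Hspa8 with Hspe1 (0.135) no longer passed. The smallest p that the permutations can give is 1e-05.

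Hspa1a and Hspa1b had the highest r, 0.855 (adjusted p = 6.87e-05 by permutation, Spearman's rho 0.834, adjusted p = 7.86e-05). It was 0.803 without the 2 mice farthest from the median of Hspa1a, which are the control mice that stood apart, and lay between 0.544 and 0.986 within the 6 batches that the study lists for its samples. Hspa8 and Dnajb1, the constitutive HSP70 and its J-domain partner, had an r of 0.748 (adjusted p = 6.87e-05 by permutation, rho 0.730, adjusted p = 7.86e-05), 0.713 without the 2 farthest mice and 0.609 to 0.922 within batches. Hsp90aa1 and Hspe1 had an r of 0.599 (adjusted p = 6.87e-05 by permutation, rho 0.581, adjusted p = 7.86e-05), 0.601 without the 2 farthest mice and 0.270 to 0.902 within batches.

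Cirbp deviated against the chaperones. Its r was negative and past the threshold with 5 of the 8 heat shock genes (Hsph1, Hspa8, Hsp90aa1, Dnajb1 and Hspe1), so that mice high for a chaperone within their group tended to be low for Cirbp. With Hsph1 the r was -0.703 (adjusted p = 6.87e-05 by permutation, rho -0.679, adjusted p = 7.86e-05), -0.640 without the 2 farthest mice and between -0.818 and -0.477 within batches. With Hspa8 it was -0.649 (adjusted p = 6.87e-05 by permutation, rho -0.651, adjusted p = 7.86e-05), -0.654 without the 2 farthest mice and between -0.872 and -0.208 within batches. The r of Dnajb1 with Cirbp was -0.513 (adjusted p = 0.00433 by permutation, rho -0.430, adjusted p = 0.0112) and -0.377 (adjusted p = 0.0550) without the 2 farthest mice, the control pair that stood apart, and between -0.760 and -0.204 within batches. That of Hspe1 with Cirbp was -0.407 (adjusted p = 0.00938 by permutation, rho -0.411, adjusted p = 0.0112), -0.422 without the 2 farthest mice and between -0.786 and -0.175 within batches, and -0.131 (adjusted p = 0.442) after the correction for unwanted variation. These calls of Dnajb1 and Hspe1 with Cirbp were thus lost, and those of Hsph1, Hspa8 and Hsp90aa1 kept, in these settings.

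Rbm3 did not share this pattern, and its r passed the threshold with 1 of the 8 heat shock genes, Dnajb1 (0.415, adjusted p = 0.0155 by permutation, rho 0.392, adjusted p = 0.0216), at 0.432 without the 2 farthest mice and between -0.221 and 0.750 within batches. Between Cirbp and Rbm3 the r was -0.171 (adjusted p = 0.334 by permutation, rho -0.161, adjusted p = 0.375), -0.105 without the 2 farthest mice and between -0.449 and 0.0647 within batches. The mean of the immediate early genes, which respond within minutes to many stimuli, had an r of 0.524 with Cirbp (adjusted p = 0.00045 by permutation, rho 0.525, adjusted p = 0.000428), 0.456 without the 2 farthest mice and 0.220 to 0.625 within batches. It also passed with Hspa1a, at 0.288 (adjusted p = 0.0387 by permutation, rho 0.289, adjusted p = 0.0795), 0.386 without the 2 farthest mice and 0.0937 to 0.580 within batches. With Hsp90aa1 the sign was opposite, at -0.306 (adjusted p = 0.0141 by permutation, rho -0.372, adjusted p = 0.0127), -0.356 without the 2 farthest mice and between -0.436 and -0.119 within batches. The relations with Hspa1a and Hsp90aa1 were 0.052 (adjusted p = 0.721) and -0.117 (adjusted p = 0.424) after the correction for unwanted variation and no longer passed.

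**Figure D5:**
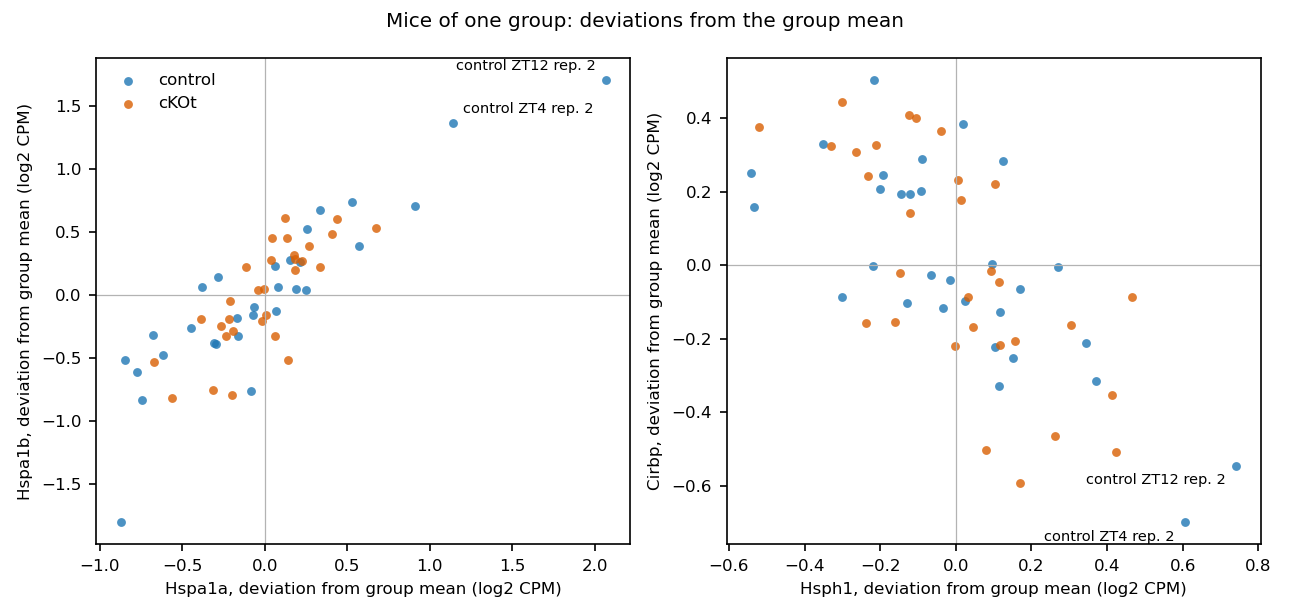
Deviation of each mouse from its group mean in log2 CPM, Hspa1b against Hspa1a (left) and Cirbp against Hsph1 (right), for control (blue) and cKOt mice (orange). The points rise along the left panel (r = 0.855) and fall along the right one (r = -0.703), and the named control mice lie at the ends of both clouds.

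The rest of the chaperone network was read from lists of companion genes, 82 genes in all. For the genotype difference, 7 of 12 other HSP90 genes and cochaperones were lower and 0 higher, 9 of 16 J-domain proteins, exchange factors and HSP70 regulators were lower and 2 higher, 7 of 8 subunits of the cytosolic chaperonin TRiC were lower and 0 higher (Cct3 by a log2 fold change of -0.18), 3 of 6 other small heat shock genes were lower and 0 higher, and 4 of 8 other HSP70 genes were lower and 2 higher. The median log2 fold changes of these lists were -0.16, -0.10, -0.080, -0.26 and -0.029, beside 0.012 over all genes. Of all genes 23.2% were called lower and 26.8% higher, and the 2 of 8 other HSP70 genes that were higher lie near the latter share. These lists were picked with earlier results known and do not stand as independent support.

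Within the HSP90 list, Fkbp5, a cochaperone of steroid receptors that glucocorticoids induce, fell by 0.40 on the log2 scale (adjusted p = 9.54e-06). Hsp90ab1, the constitutive HSP90, fell by 0.32 (adjusted p = 1.49e-11) and Ahsa1, an activator of the HSP90 ATPase, by 0.28 (adjusted p = 6.62e-09). Among J-domain genes Dnaja4 fell by 0.47 (adjusted p = 2.00e-16) and Dnaja1 by 0.33 (adjusted p = 5.91e-09), and Dnajb6 by 0.22 (adjusted p = 5.01e-11). In the small heat shock list Cryaa went from a mean of 2.19 to 0.848 CPM (log2 fold change -1.35, adjusted p = 2.28e-13), Hspb8 from 6.25 to 2.98 CPM (-1.06, adjusted p = 4.58e-17), and Hspb6 from 5.86 to 4.46 CPM (-0.40, adjusted p = 3.71e-08).

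Some companions went up in cKOt mice. Hspa2, an HSP70 best known from the testis, rose from a mean of 3.13 to 5.03 CPM (log2 fold change 0.70, adjusted p = 9.31e-13), while Hspa4l and Hspa9 were lower by log2 fold changes of -0.20 (adjusted p = 2.79e-05) and -0.19 (adjusted p = 2.16e-15). Among 6 mitochondrial chaperones and proteases 2 were higher and 1 lower, and Clpx, the unfoldase of the mitochondrial protease ClpXP, rose from 213 to 367 CPM (log2 fold change 0.82, adjusted p = 1.74e-26). In the list of 12 SR proteins and CLK kinases, which act in splicing, 4 were higher and 1 lower, Srsf6 with a log2 fold change of 0.13 (adjusted p = 3.35e-07). Hsf1 itself, the heat shock factor, averaged 21.3 ± 3.22 CPM in the controls against 21.1 ± 3.21 CPM (SD, n = 30 each), and its log2 fold change was 0.0029 (SE 0.027, adjusted p = 0.941). The heat shock factor list of 4 genes also holds Hsbp1, which encodes a protein that binds these factors. In it 1 gene was lower, Hsf2 (-0.091, adjusted p = 0.00658 in the edgeR fit), a share near the 23.2% called lower over all genes. The 4 SR and CLK genes and the 2 mitochondrial genes that were higher, and the 2 immediate early genes that were lower, are shares near the 26.8% and 23.2% called over all genes. Of the 10 immediate early genes 2 were lower, Dusp1 (-0.38, adjusted p = 0.00149) and Atf3 (-0.37, adjusted p = 0.0111).

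From light to dark in control mice, the companion genes that passed the threshold were all higher. Higher in the dark were 8 of 12 HSP90 genes and cochaperones, 7 of 16 J-domain proteins and regulators and 6 of 8 TRiC subunits. So were 4 of 8 other HSP70 genes, 5 of 12 SR proteins and CLK kinases and 2 of 6 mitochondrial genes. The same held for 2 of 4 genes of the heat shock factor list and 1 of 6 small heat shock genes. Over all genes 12.8% were called higher, and the small heat shock genes lie near that share. In these lists 0 genes were lower, and 0 of 10 immediate early genes passed the threshold in either direction. Fkbp5 rose by 0.67 (adjusted p = 0.000103), Chordc1, an HSP90 cochaperone, by 0.60 (adjusted p = 1.71e-09), and Stip1, which links HSP70 to HSP90, by 0.44 (adjusted p = 1.20e-06). Dnaja4 rose by 0.40 (adjusted p = 2.49e-06) and Hsf1 by 0.27 (adjusted p = 2.24e-05). In cKOt mice the Hsf1 difference was 0.21 (adjusted p = 0.000551 in the edgeR fit), and 9 of the 12 HSP90 genes and cochaperones were higher. Of all genes 12.2% were higher and 12.7% lower in the dark in cKOt mice. Other lists held genes lower in the dark in cKOt mice, 2 of 6 mitochondrial genes (1 higher) and 1 of 6 small heat shock genes (0 higher), which was Hspb6 (-0.46, adjusted p = 0.000448), and 2 of 10 immediate early genes were higher. The lower mitochondrial genes were Clpx (-0.34, adjusted p = 4.60e-05) and Grpel2 (-0.25), the higher one was Hspd1 (0.10), and the immediate early genes were Ier3 (0.39) and Btg2 (0.39), with Grpel2, Ier3 and Btg2 named after their values were seen.

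Among the 5 genes whose mean log2 CPM over the 12 groups ran most like that of Hsph1, of 13780 genes with a mean of at least 1 CPM, were Dnaja4 (r = 0.969), Nop16 (0.956), Dnaja1 (0.949) and Eif4g1 (0.949). Of these, Dnaja4 and Dnaja1 encode J-domain proteins. The most opposite were Extl2 (-0.991), Pde7b (-0.964) and Mfsd7a (-0.959). For Cirbp the most alike were Zkscan17 (0.978), Calcoco1 (0.971), Cbx7 (0.968), 2410002F23Rik (0.957) and Sat2 (0.936). The most opposite to Cirbp were Ube2f (-0.965), Chordc1 (-0.954) and Hspa4 (-0.952), and the latter pair are chaperone genes of the companion lists. These values describe 12 group means that share time and genotype.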

How the data were processed

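Per the labels and the study's methods, the authors trimmed reads with cutadapt 1.8, aligned them to GRCm38 with STAR 2.5.3a and counted them with HTSeq 0.9.1, and deposited raw counts per Ensembl gene for 60 libraries (17791420 to 20906706 counts on genes, median 18545208.5). Libraries were made with a stranded kit, and the strand setting of the counting is not given in the sources used here. Lines that name no gene were left out. They held 5.19% to 7.87% (no feature), 0.708% to 0.927% (ambiguous) and 24.3% to 29.4% (more than 1 alignment) as a percent of all counts in a file, those lines included. Here, 15546 genes reached 1 CPM in 1 or more samples and were kept, libraries were scaled by TMM, and edgeR 4.0.16 (R 4.3.3) fitted 12 groups with 2 RUVs factors of unwanted variation, rewritten from the published method, with quasi-likelihood F tests and Benjamini-Hochberg adjustment over all genes. This differs from the study's limma fit because the files hold counts. limma 3.58.1 and DESeq2 1.42.0 were alternatives, beside other scaling, filters, RUVs factors, batch, replicate block and libraries left out. Curves of 24 h were fitted to corrected log2 CPM (prior count 2). Comparisons share mice with each other. The 10 genes and the companion lists were chosen with earlier results of these data known. Named genes are the 10 members, up to 3 genes of each companion list by size among those past the threshold, Arntl, and the genes most like Hsph1 and Cirbp, of which 1 is not reported here. Scripts were tested on simulated data. No pair of libraries within a group was a duplicate. Gene positions are from GENCODE M21, and windows from RefSeq.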

Additional observations from a re-analysis of the deposited data

Results flagged for a closer look

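Of 120 combinations of a gene with a group of 5 mice, 13 held a mouse far from the others by Dixon's criterion on CPM. About 1 in 20 would be marked by chance if values were normal and combinations independent. They share mice and their genes vary together, so the count cannot be set against that rate. Of the 13, 5 were control replicate 2 at ZT12, high for Hspa1a (22.1 CPM), Hspa1b (30.8 CPM), Hsph1 (355.7 CPM), Hsp90aa1 (245.6 CPM) and Dnajb1 (79.7 CPM). Control replicate 2 at ZT4 was high for Dnajb1 (51.4 CPM). Hspa8 was low in control replicate 5 at ZT16 (1039 CPM, others 1549 to 1610 CPM). Hspe1 was high in control replicate 4 at ZT16 (144.8 CPM), and Cirbp in control replicate 5 at ZT0 (21.4 CPM). Rbm3 was low in cKOt replicate 5 at ZT0 (42.9 CPM) and high in cKOt replicate 5 at ZT8 (63.9 CPM), replicate 2 at ZT12 (74.3 CPM) and replicate 4 at ZT20 (55.0 CPM).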

How the results depend on the processing

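The lower level of Hsph1, Hsp90aa1, Hspb1 and Hspe1 in cKOt mice stayed past the threshold in 10 of 10 alternatives and in 5 of 5 fits that left out a replicate number. Hspa8 stayed past it in 5 of 10 and 1 of 5, and Dnajb1 in 7 of 10 and 1 of 5. Without RUVs factors, with batch in their place, or without replicate 4, Cirbp was no longer called, so that the count of members higher was 0 (0 to 1 when leaving out replicates). The log2 fold change of Hspa1a turned to 0.026 with limma-trend, 0.11 without replicate 2, 0.060 without control ZT12 replicate 2 and 0.13 without both control mice that stood apart (-0.18 to 0.11 when leaving out replicates), and at ZT12 it was 0.026 without replicate 2 (range -1.18 to 0.026). Members called were 1 at ZT4 without a filter, without RUVs factors, with batch or without control ZT4 replicate 2. At ZT12 they were 3 without a filter, without RUVs factors, with batch, with limma-trend or with the replicate block, and 2 without control ZT12 replicate 2 or without both mice. At ZT20 they were 1 with DESeq2 size factors, no filter, filterByExpr, no RUVs factors, batch, 1 RUVs factor or the DESeq2 Wald test. In control mice 8 members were higher in the dark without both mice. Leaving out each replicate in turn gave 1 to 2 members at ZT0, 0 to 3 at ZT4, 3 to 6 at ZT8, 2 to 5 at ZT12, 1 to 3 at ZT16, 0 to 2 at ZT20, and 4 to 7 higher in the dark in control mice. Over all genes, the calls without RUVs factors and with batch were 983 and 1130 at ZT0 (1884 as reported), 2013 and 1991 at ZT8 (3095), 1853 and 1829 at ZT16 (3071), 1407 and 1419 at ZT20 (2140), 1062 and 1119 higher in the dark in cKOt mice (1901), 166 and 191 for the dark-light difference between genotypes (316) and 263 and 312 for the interaction (479), and with batch 3091 at ZT4 (1950). Leaving out replicates gave 156 to 197 for the dark-light difference, 233 to 429 for the interaction and 2608 to 3375 for time in cKOt mice (4142). The causes were not tested. Replicate numbers did not pair the mice, since deviations of mice with the same number had a mean r of 0.0043 (n = 330 pairs) and others -0.0010 (n = 1320 pairs). With the replicate block, Hspa1a and Hspa1b at ZT12 had log2 fold changes of -0.84 and -0.83 (adjusted p = 0.0652 and 0.0608 in edgeR) and were not called, whereas Hspa1b and Hspb1 in control mice were called higher in the dark (0.62 and 0.40, adjusted p = 0.0428 and 0.0355). Alternatives without single control mice were chosen after seeing the data.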
